A study of Rattus norvegicus with 10 samples.

Results

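The miR-132 and miR-212, miR-9, miR-124, miR-128 and miR-7 families are best known from the nervous system, and they were followed here in the tissue of arthritic rats. Their members were taken by name, as every mature miRNA of the rat (prefix rno) whose name begins with miR-132, miR-212, miR-9a, miR-124, miR-128 or miR-7a. This gave 14 of the 723 mature miRNAs listed (miR-1249, whose name begins alike, belongs to another family and was left out). The choice was made with earlier results of these data known. Counts of miRNAs were available for 10 small RNA libraries of female Wistar rats, 2 for each of 5 groups. All animals, controls included, had collagen-induced arthritis (CIA), so that no healthy tissue stands beside them. CIA_B was sampled before therapy. MS_E and MS_A were sampled 1 h and 34 days after mechanical stimulation, a needle inserted and twirled under the skin of the lower back and the leg, which the labels call acupuncture. PLA_E and PLA_A were sampled at the same times under placebo, a peritoneal injection of saline. By the study, stimulation was repeated every other day and saline was given weekly, so the samples at 34 days follow a course of treatment. The tissue was excised around the stimulated points; it is muscle by the labels and subcutaneous tissue with its muscle by the methods of the study, the series text also mentions blood, and the age of the animals is not given in the sources used here. The labels number the replicates without naming the animals, so p-values measure only the spread between these libraries, which may be technical.

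In neurons, miR-132 and miR-212 are transcribed together from 1 locus that the transcription factor CREB activates after synaptic input or growth factors, and they act on neurite growth and synaptic proteins. miR-124 and miR-9 are hallmarks of neuronal and neural progenitor cells, where they repress non-neuronal messages and progenitor factors. miR-128 is abundant in brain and is made in other tissues too, and miR-7 is known from neuroendocrine cells, pancreatic islets and the regulation of growth factor signalling. A miRNA recognises its targets mainly through the seed, bases 2 to 8, so miRNAs with the same seed can act on overlapping targets.

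The mature sequences of 12 of the 14 members were matched in RefSeq (build GRCr8, while the counts were made on rn4). Those of the members that were tested are shown 5′ to 3′ with the seed in capitals, so that shared seeds can be seen. No sequence is printed for miR-124-3p and miR-124-5p.
rno-miR-132-3p: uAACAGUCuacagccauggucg
rno-miR-212-3p: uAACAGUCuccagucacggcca
rno-miR-212-5p: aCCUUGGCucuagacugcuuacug
rno-miR-128-3p: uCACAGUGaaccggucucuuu
rno-miR-128-1-5p: cGGGGCCGuagcacugucuga
rno-miR-7a-5p: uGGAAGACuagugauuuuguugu
rno-miR-7a-1-3p: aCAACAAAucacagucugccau
rno-miR-9a-5p: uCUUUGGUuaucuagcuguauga

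miR-132-3p and miR-212-3p share the seed AACAGUC and 17 of 22 positions. Both lie on the plus strand of chromosome 10, miR-132-3p at chr10:60522091-60522112 and miR-212-3p at chr10:60521811-60521832, and the 4 arms of this cluster fit within 342 bases. miR-128-3p is encoded by 2 loci, at chr13:42251933-42251953 (plus strand) and chr8:120963807-120963827 (minus strand), and the 5p arms of these loci, miR-128-1-5p and miR-128-2-5p, share the seed GGGGCCG. miR-7a-5p is likewise encoded by 2 loci, chr17:6278710-6278732 and chr1:142215818-142215840 (both plus strand), and only the 3p arms, miR-7a-1-3p and miR-7a-2-3p, tell the loci apart. The seed of miR-7a-1-3p, CAACAAA, is not that of its partner arm, GGAAGAC. miR-9a-5p is encoded by 3 loci, and a read of it cannot be assigned to any of them.

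Detection was uneven. Of the 14 members, 10 had at least 1 read in every library, 2 had at most 3 reads in each library, and 8 passed the filter for testing, a level of 1 cpm or more (cpm, reads per 1000000 reads on miRNAs) in 5 or more of the 10 libraries. miR-124-5p was never read, and 0 of 53057346 reads allows up to 0.0565 cpm over all libraries, or 1.98 cpm in the smallest library and 0.336 cpm in the largest, where 3 reads are the limit that a count of 0 allows. Limits and intervals given here cover counting error alone, because amplified reads do not stand for separate molecules. miR-124-3p, the arm that dominates in neurons, had 47 reads in all, between 2 and 13 in a library. miR-7a-2-3p had 1 read. miR-9a-3p had 17 reads, of which 11 came from MS_E replicate 1. miR-128-2-5p had 19 reads and miR-132-5p 59. These 6 members were not tested, and their values are given here only as counts. The close relatives outside the list were as scarce, with at most 2 reads of miR-7b in a library and 0 reads of miR-9b-5p and of miR-9b-3p.

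**Figure D1:**
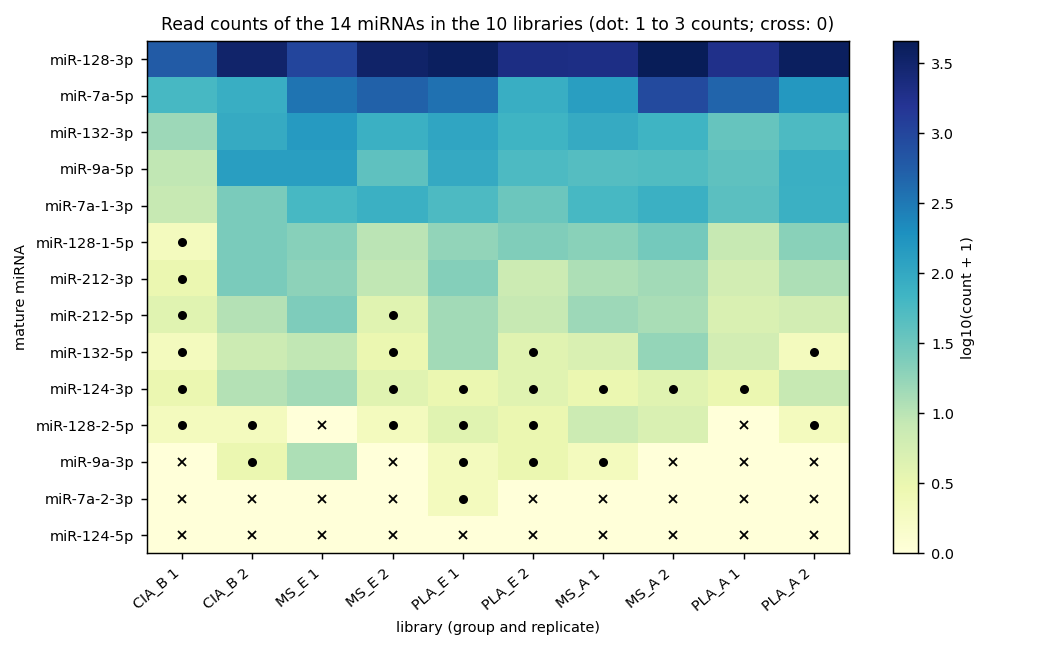
Reads counted for each of the 14 miRNAs (rows, ordered by total) in each of the 10 libraries (columns); colour is log10(count + 1), a dot marks 1 to 3 counts and a cross 0 counts. miR-128-3p, at 576 to 4563 reads, is darkest throughout, and the rows from miR-132-5p downwards hold at most 16 reads in any library.

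The members together had 32130 of the 53057346 reads, or 606 cpm, and this share ranged from 202 cpm in MS_E replicate 1 (95% Wilson interval 192.9 to 211.5) to 865 cpm in PLA_E replicate 1 (840 to 890). miR-128-3p made up 82.7% of them, miR-7a-5p 9.68%, miR-132-3p 2.35%, miR-9a-5p 2.10% and miR-7a-1-3p 1.59%. Mean levels and ranks were taken from cpm after scaling with the TMM factors of edgeR, unlike the shares just given. By mean level miR-128-3p ranked 62 of 723 miRNAs, miR-132-3p ranked 199 and miR-9a-5p 207. miR-7a-5p lay between miR-128-3p and miR-132-3p, and miR-7a-1-3p lay below them. miR-212-3p and miR-212-5p, at mean levels of 2.14 and 1.85 cpm, ranked 330 and 342, and miR-128-1-5p, at 3.04 cpm, ranked 309. Ligation and amplification differ between miRNAs, so ranks between sequences are approximate. In tissue, fewer cells of a type and less miRNA per cell cannot be told apart.

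Libraries held 1513799 (CIA_B replicate 1) to 8926170 (MS_E replicate 1) reads on miRNAs, and all levels below are cpm after scaling with the TMM factors of edgeR. Within every group the libraries differed in some muscle miRNAs. miR-1-3p, which is specific to heart and skeletal muscle, was at 80416 to 122986 cpm in 1 library of each group and at 10117 to 15567 cpm in the other. The libraries with more miR-1-3p were CIA_B 1, MS_E 2, PLA_E 1, MS_A 2 and PLA_A 1. miR-206-3p and miR-133b-3p were higher in the same library in 5 of 5 groups, but miR-133a-3p in 3 of 5 and miR-133a-5p in 2 of 5. The list of 8 skeletal muscle miRNAs summed to between 84134 and 268983 cpm, with no library at 0, so the labelled tissue was seen in its markers. MS_E replicate 1 stood apart in its epithelial miRNAs (14 names, 10 of them above 3 counts in any library), which summed to 454 cpm there and to 33.8 to 141.2 cpm in the other libraries. PLA_A replicate 1 stood apart in its leukocyte miRNAs (8 names, all of them above 3 counts in some library), which summed to 14634 cpm there and to 1645 to 3407 cpm in the other 9, with miR-142-5p at 5855 cpm against 101 to 551 cpm.

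Before therapy, the level of miR-7a-1-3p, the passenger arm of the locus on chromosome 17, was the lowest of all groups. It was at 6.06 and 3.68 cpm in the CIA_B libraries (7 and 25 reads). It was at 9.11 and 12.2 cpm in MS_E, 7.24 and 8.55 cpm in PLA_E, 14.0 and 9.51 cpm in MS_A, and 10.7 and 14.2 cpm in PLA_A. Each of the 8 libraries taken after the start of therapy or placebo was thus above both libraries of CIA_B, at 10.7 ± 2.56 cpm (SD, n = 8) against 4.87 ± 1.68 cpm (SD, n = 2). A position above both CIA_B libraries in all 8 others was shared by 12 of the 359 miRNAs tested, 3.34%. The summed leukocyte miRNAs were likewise lowest in CIA_B, at 1651 and 1645 cpm in CIA_B and 1981 to 14634 cpm in the 8 later libraries, and 2 of the 7 tested, miR-142-3p and miR-223-3p, were higher by the criteria given below. Of the 7 epithelial miRNAs tested 2 were also higher, miR-200b-3p and miR-200c-3p, and the epithelial sum was 33.8 and 75.3 cpm in CIA_B and 59.9 to 454 cpm later. None of the tested muscle, endothelial, erythroid and brain miRNAs passed in this comparison, but 4 of 7 leukocyte and 2 of 3 erythroid miRNAs (both arms of miR-144) were higher in PLA_A against CIA_B, and 1 of 7 leukocyte miRNAs in MS_A. The part of these cell types in the level of miR-7a-1-3p was not tested. In a two-sided exact permutation test of the libraries the difference of 1.08 on the log2 scale had p = 0.0444, the smallest that 8 libraries against 2 can give, and the only 1 of 24 such tests (8 members, 3 pooled comparisons) under 0.05. That p is fixed once all 8 libraries lie above both of CIA_B. It therefore restates the separation, and each of the 12 miRNAs with that position would get it.

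A miRNA was called where it changed more than 2-fold with p below 0.05 before adjustment, the criteria the study used. On these, miR-7a-1-3p rose in MS_A against CIA_B (log2 fold change 1.26, standard error 0.51, unadjusted p = 0.0352, adjusted p = 0.994 in edgeR's quasi-likelihood test). No other of the 8 members passed there, and 1.11% of all miRNAs tested did. It also rose in PLA_A against CIA_B (1.35, standard error 0.51, unadjusted p = 0.0269, adjusted p = 0.543 in edgeR), where again it was the only member and 6.96% of the miRNAs tested passed. Over all 8 later libraries against CIA_B the log2 fold change was 1.11 (standard error 0.44, unadjusted p = 0.0308, adjusted p = 0.932 in edgeR), with 4.18% of the miRNAs tested passing. Adjustment was by Benjamini-Hochberg over the 359 miRNAs, and no member passed 0.05 after it in any of the 10 comparisons, in edgeR, in DESeq2 or in limma-voom (smallest adjusted p = 0.212 over every alternative tried). At 1 h the values were 1.13 in MS_E (unadjusted p = 0.0532 in edgeR) and 0.71 in PLA_E (unadjusted p = 0.192), neither past the thresholds. With limma-voom, the method the study used, the change in MS_E was 1.26 (unadjusted p = 0.0452) and passed, as did 5.29% of the miRNAs tested. Without CIA_B replicate 2 the edgeR values at 1 h were 0.78 in MS_E and 0.36 in PLA_E. All these comparisons share the 2 CIA_B libraries. Without CIA_B replicate 2, the library with the lowest level, the log2 fold change was 0.91 in MS_A, 1.00 in PLA_A and 0.76 over the 8, and none passed. Without MS_A replicate 1 the call in MS_A (1.02) and that over the 8 (unadjusted p = 0.0516 in edgeR) were lost, and without PLA_A replicate 2 that in PLA_A (1.04). Fitted to the 4 libraries of a comparison alone, neither call at 34 days was made, at much the same folds (1.24, unadjusted p = 0.0587 in MS_A and 1.35, unadjusted p = 0.0644 in PLA_A, both in edgeR), while 3.34% and 7.52% of the 359 miRNAs passed in these fits. Without PLA_A replicate 1 the change in PLA_A was 1.55 and passed, and the library left there was also above both of CIA_B in its leukocyte miRNAs.

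**Figure D2:**
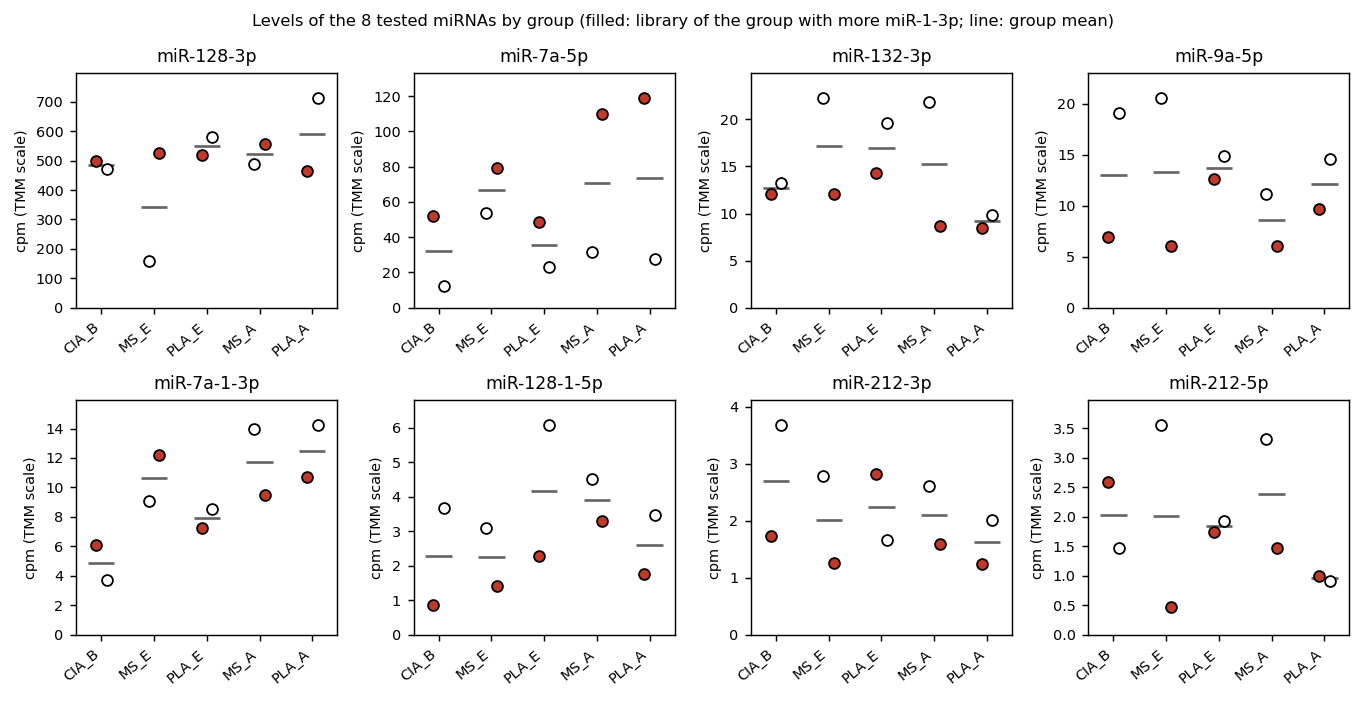
Level of each of the 8 tested miRNAs (cpm on the TMM scale, vertical axes from 0) in the 2 libraries of each group; filled points are the library of the group with more miR-1-3p, and the line is the mean of the 2. miR-7a-1-3p is above both CIA_B libraries in every other group, and the 2 libraries of a group often lie further apart than the group means.

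miR-7a-5p, the guide arm of this hairpin and of that on chromosome 1, whose reads cannot be told apart, differed along the division of the libraries. It was at 51.9 and 12.2 cpm in CIA_B, 53.7 and 79.3 cpm in MS_E, 48.4 and 23.2 cpm in PLA_E, 31.3 and 110 cpm in MS_A, and 119 and 27.9 cpm in PLA_A. In each of the 5 groups the higher value was that of the library with more miR-1-3p, by 0.56 to 2.09 on the log2 scale and by 1.34 to 2.60 when counts were scaled to library size only. Of the 358 miRNAs tested besides miR-1-3p, 17.3% were likewise higher in 5 of 5 groups. The fitted changes against CIA_B were 1.08 in MS_E, 1.17 in MS_A and 1.22 in PLA_A, with standard errors of 0.93. The change was 0.19 (standard error 0.91, unadjusted p = 0.839 in edgeR) in PLA_E and 0.91 (standard error 0.78) over the 8 libraries, and none passed (smallest unadjusted p = 0.223 in edgeR). Without PLA_A replicate 1, which held the highest level, the change in PLA_A was -0.085, and the lowest change in MS_A with a library left out was -0.016. Without CIA_B replicate 2 the changes in MS_E and over the 8 libraries were 0.36 and 0.19, and without CIA_B replicate 1 they were 2.34 and 2.16, so that their size rests on which library stands for the time before therapy. With the division as a term in the fit, added after the data were seen, miR-7a-5p passed the thresholds in MS_E (1.41, unadjusted p = 0.0142 in edgeR, adjusted p = 0.212) and also in MS_A (1.20), PLA_A (1.19) and over the 8 libraries (1.05). In that fit 11.4%, 2.79%, 13.1% and 5.01% of the 359 miRNAs passed in these 4 comparisons. Where the reads of both arms are set against each other, no scaling enters. The ratio of miR-7a-5p, from both loci, to miR-7a-1-3p was 6.51 to 11.6 in the 5 libraries with more miR-1-3p and 1.96 to 5.90 in the others, higher within 5 of 5 groups. The ratio of miR-128-3p to miR-128-1-5p was likewise higher within 5 of 5 groups, at 169 to 576 (the highest from 1 read of miR-128-1-5p) against 51.3 to 205.5. The other ratios formed did not follow the division: that of miR-132-3p to miR-132-5p was higher in 1 of 5 groups, and those of miR-132-3p to miR-212-3p and of miR-212-3p to miR-212-5p in 3 of 5 each, while miR-9a-3p had 0 reads in a library of 4 groups, which leaves its ratio in 1 group. Ratios outside the members were not formed. Whether the amount of muscle in the tissue has a part in this was not tested.

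miR-132-3p, the most abundant product of the CREB-regulated cluster, was between 8.47 and 22.2 cpm and did not pass in any comparison. It was at 12.1 and 13.2 cpm in CIA_B, 22.2 and 12.0 cpm in MS_E, 14.3 and 19.6 cpm in PLA_E, 21.8 and 8.65 cpm in MS_A, and 8.47 and 9.84 cpm in PLA_A. MS_E replicate 1, PLA_E replicate 2 and MS_A replicate 1 were high, and the other library of MS_E and of MS_A was below both CIA_B libraries. Both PLA_E libraries were above both of CIA_B, and both PLA_A libraries were below them. Such separations of 2 libraries from 2 decide nothing, since an exact permutation test of them cannot go below 0.333. The share of all miRNAs separated in these comparisons is not given here. The change in PLA_A was -0.46 (standard error 0.57, unadjusted p = 0.441 in edgeR). At 34 days against 1 h, over both arms, it was -0.52 (standard error 0.40, unadjusted p = 0.224), from 17.0 ± 4.69 to 12.2 ± 6.45 cpm (SD, n = 4 each), a difference of about the size of the spread between libraries. It was -0.26 without MS_E replicate 1 and -0.91 without MS_A replicate 1. For stimulation against placebo, the 0.36 (standard error 0.39, unadjusted p = 0.384 in edgeR) became -0.035 when counts were scaled to library size only, which moved the median of all miRNAs in this comparison by -0.27. With each library left out in turn, the change of miR-132-3p there ranged from 0.013 to 0.61. At 1 h the change of MS_E against PLA_E was 0.02 with a standard error of 0.56, which is too wide to show that the arms were alike.

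The co-transcribed miR-212 arms were close to the limit of detection. miR-212-3p, which shares the seed of miR-132-3p, had 2 to 25 reads in a library and was at 1.25 to 3.68 cpm, with the highest value in CIA_B replicate 2. Its change in PLA_A against CIA_B was -0.71 (standard error 0.63, unadjusted p = 0.285 in edgeR), and -0.064 without CIA_B replicate 2. miR-212-5p had 3 to 23 reads and was at 0.468 to 3.55 cpm. Both PLA_A libraries, at 1.00 and 0.912 cpm, were below all others but MS_E replicate 2, at 0.468 cpm from 3 reads. The change in PLA_A was -0.76 (standard error 0.82, unadjusted p = 0.380 in edgeR). In all, 6.28 reads of miR-132-3p were counted for 1 of miR-212-3p (3.60 to 11.8 in single libraries). The 3p arm exceeded the 5p arm 12.8-fold in reads for miR-132 and 1.28-fold for miR-212.

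miR-128-3p, with 576 to 4563 reads the most precisely counted member, was at 466 to 712 cpm in 9 of the 10 libraries (330 to 734 cpm by library size only). It was at 499 and 472 cpm in CIA_B, 519 and 581 cpm in PLA_E, 489 and 556 cpm in MS_A, 466 and 712 cpm in PLA_A, and 526 cpm in MS_E replicate 2. In MS_E replicate 1 it was at 158 cpm, below every other library, and its share of the members' reads was 56.9% (95% Wilson interval 54.6 to 59.2%) against 75.2 to 90.5% elsewhere. The change of MS_E was -0.50 (standard error 0.54, unadjusted p = 0.377 in edgeR) against CIA_B and -0.68 (standard error 0.54, unadjusted p = 0.238) against PLA_E. Without MS_E replicate 1 these were 0.063 and -0.13. With that library as the only one of MS_E they were -1.61 (unadjusted p = 0.0131, adjusted p = 0.402 in edgeR) and -1.79 (unadjusted p = 0.00799, adjusted p = 0.395 in edgeR), assuming that it varies like the other groups. In these fits, whose library was kept because its value stood apart, 8.91% and 9.75% of the 359 miRNAs passed. The same library held the epithelial miRNAs named above and the lowest sum of endothelial miRNAs, 4275 cpm against 8494 to 14719 cpm elsewhere, and their part in the low miR-128-3p was not tested. The partner arm miR-128-1-5p had 1 to 27 reads and was at 0.866 to 6.07 cpm. It had the largest value of the members in the interaction of arm and time (1.27, standard error 1.01, unadjusted p = 0.237 in edgeR), which did not pass and was 0.47 without PLA_E replicate 2 and 1.84 without MS_E replicate 1. The 3p arm exceeded it 160-fold in reads.

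miR-9a-5p, a miRNA of neural progenitors, was at 6.92 and 19.1 cpm in CIA_B, 20.5 and 6.09 cpm in MS_E, 12.6 and 14.9 cpm in PLA_E, 11.2 and 6.09 cpm in MS_A, and 9.71 and 14.6 cpm in PLA_A. The spread within MS_E covered the values of every other group. Its lowest change was that of MS_A against CIA_B, -0.63 (standard error 0.70, unadjusted p = 0.391 in edgeR), and -1.23 to 0.29 with single libraries left out. It was lower in the library with more miR-1-3p in 5 of 5 groups, as were miR-132-3p and miR-128-1-5p and 14.0% of the 358 miRNAs. Together 4 of the 8 members went the same way in all 5 groups, where 31.3% of the 358 did. When counts were scaled to library size only, the numbers were 4, 3 and 4 of 5 groups, so for these 3 members the direction in some groups depended on the scaling. miR-7a-1-3p went the other way with the scaling, from higher in 2 of 5 groups with TMM factors to 5 of 5 with library size.

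**Figure D3:**
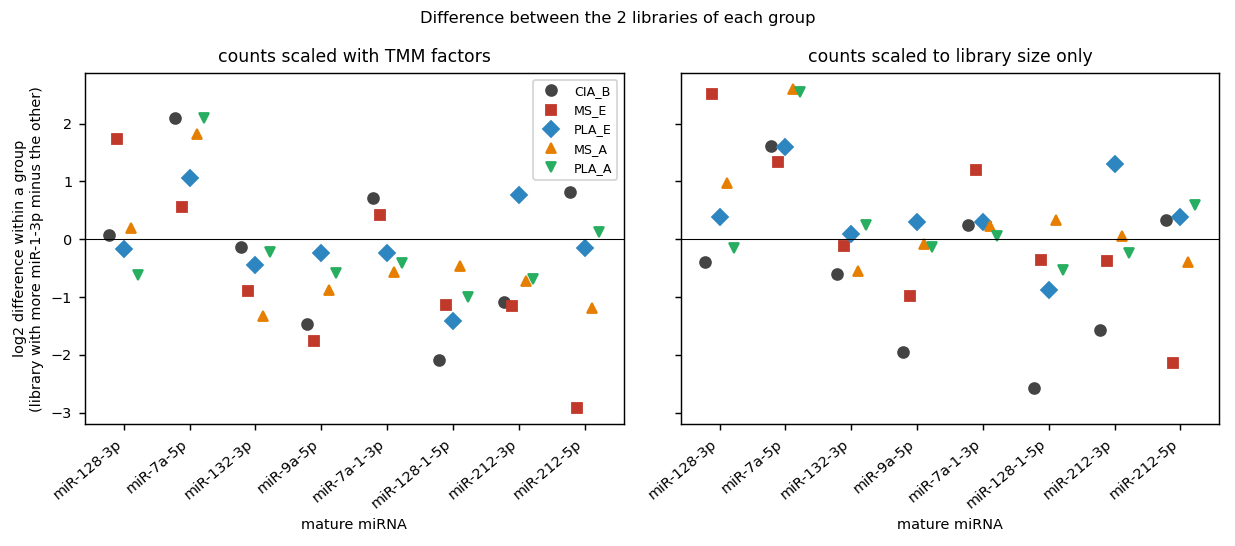
Difference in level (log2 scale) between the library of each group with more miR-1-3p and the other library, for the 8 tested miRNAs, with counts scaled with TMM factors (left) and to library size only (right); each symbol is 1 group. miR-7a-5p is above 0 in 5 of 5 groups in both panels, and miR-9a-5p, miR-132-3p and miR-128-1-5p are below 0 in 5 of 5 groups only on the left.

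Between the arms of the study no member passed the thresholds at either time. In MS_E against PLA_E the changes of the 8 members lay between -0.77 and 0.88 (smallest unadjusted p = 0.238 in edgeR), with 3.90% of the miRNAs tested passing. In MS_A against PLA_A they lay between -0.49 and 1.04 (smallest unadjusted p = 0.212), with 1.95% passing. For stimulation against placebo over both times (3.34% passing), 34 days against 1 h (4.74%) and the interaction of arm and time (3.34%) no member passed either, nor in MS_E against CIA_B (6.41%) or PLA_E against CIA_B (0.557%). The 80 fits of 8 members in 10 comparisons held 3 with an unadjusted p under 0.05 in edgeR, all of miR-7a-1-3p. Of all miRNAs tested, between 0.557% (PLA_E against CIA_B) and 7.52% (PLA_A against CIA_B) had such a p in a comparison. In the comparisons of those 3 fits the shares were 1.11% (MS_A), 7.52% (PLA_A) and 4.46% (over the 8 later libraries). With 2 libraries against 2 an exact permutation test cannot go below 0.333, so none was made for single groups. Ordered by mean level, 27 of the 32 neighbouring pairs of groups overlapped in their libraries and 5 did not, where 11.5% of the 1436 such pairs of all 359 miRNAs tested did not.

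**Figure D4:**
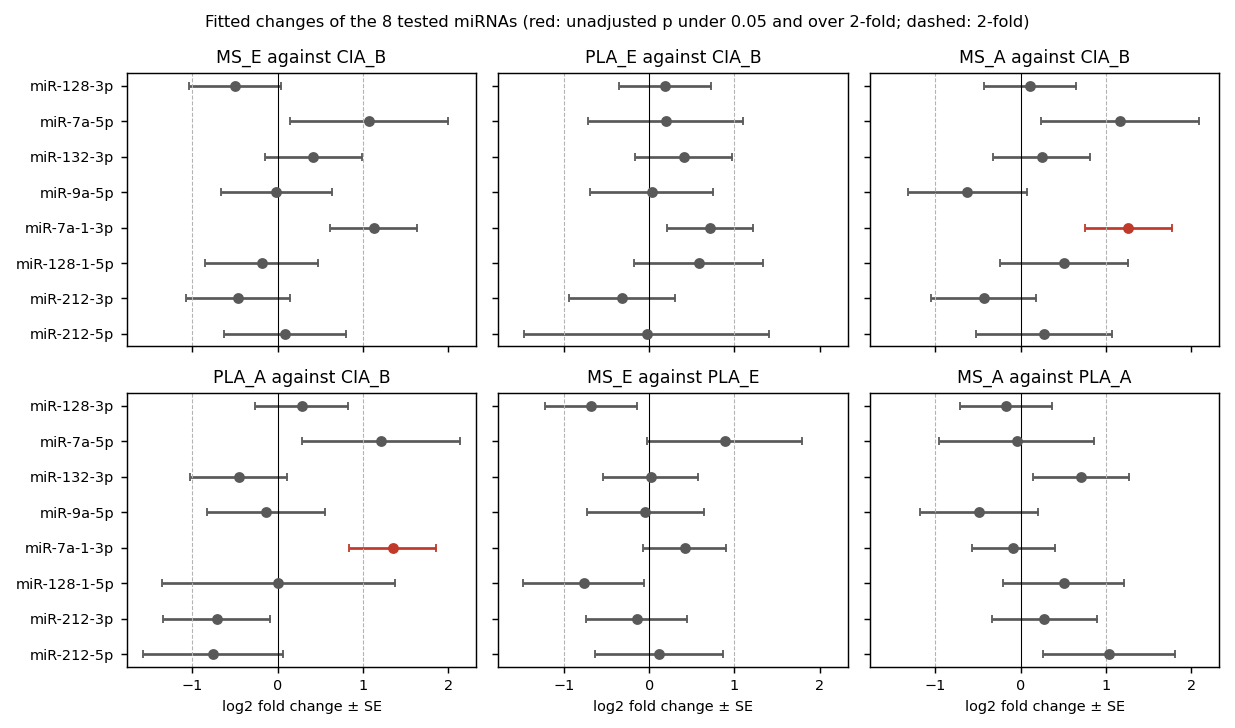
Fitted log2 fold change (horizontal axis, bars are the standard error) of the 8 tested miRNAs in the 6 comparisons of 2 groups, with red where the unadjusted p was under 0.05 and the change over 2-fold. miR-7a-1-3p, at 1.26 in MS_A and 1.35 in PLA_A against CIA_B, is the only one in red.

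Other miRNAs known from brain were mostly scarce. Of 29 names on a list of brain miRNAs, 6 were at 0 in every library, 5 were tested and none of these passed in any of the 10 comparisons (smallest unadjusted p = 0.0800 in edgeR). miR-338-3p, which is also made by glia, was the most abundant of the 5. Its mean of 107 cpm (38.8 to 176 cpm) was above that of every member but miR-128-3p. miR-138-5p was the most variable, at 2.93 to 63.3 cpm. The means of miR-138-5p (21.9 cpm) and miR-218a-5p (16.1 cpm) were above those of miR-132-3p (14.2 cpm) and miR-9a-5p (12.2 cpm). Those of miR-488-3p (5.85 cpm) and miR-338-5p (5.70 cpm) were below. miR-135a-5p and miR-135b-5p had 79 and 56 reads in MS_E replicate 1, and 3 together in the other 9 libraries.

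Across the 10 libraries the median correlation of the 28 pairs of tested members was -0.0025 (Pearson, log2 cpm, from -0.69 to 0.72), and that of all 64261 pairs of tested miRNAs was -0.0055. Of the miRNAs of other families, those most like miR-7a-5p over the 10 libraries were miR-30b-5p (r = 0.88), miR-33-3p (0.87) and miR-345-5p (0.85). Those most like miR-9a-5p were miR-340-5p (0.89), miR-125b-1-3p (0.88) and miR-199a-5p (0.86), those most like miR-132-3p were miR-98-5p (0.80), miR-221-5p (0.79) and miR-6315 (0.76), and those most like miR-7a-1-3p were miR-350 (0.77), miR-143-5p (0.68) and miR-872-5p (0.67). For miR-128-3p they were miR-22-3p (0.86), miR-126a-5p (0.86) and miR-190a-5p (0.83), where the rank correlations of 0.70, 0.35 and 0.49 were lower. For miR-128-1-5p they were let-7e-5p (0.88), miR-582-3p (0.87) and miR-106b-3p (0.87), for miR-212-5p miR-183-5p (0.81), miR-221-5p (0.79) and miR-664-3p (0.74), and for miR-212-3p miR-125b-1-3p (0.77), miR-199a-5p (0.73) and the member miR-9a-5p (0.72). These values are descriptions, since the libraries share the division in miR-1-3p and the scaling.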

How the data were processed

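The authors removed adapters and reads that were too short, aligned the rest with Bowtie to rn4 and miRBase (rat), counted them with miRDeep2 (base calls by CASAVA 1.8), and deposited unnormalized whole read counts for each library. Where a miRNA had several precursors, the largest count was taken. A series table was left out, since its 20 value columns match no label. edgeR 4.0.16 in R 4.3.3 (TMM factors, quasi-likelihood test, prior count 2) was fitted once to all 10 libraries, over the 359 of 723 miRNAs that reached 1 cpm in 5 libraries or more, with Benjamini-Hochberg adjustment over the 359. Counts of libraries in 1 group differed far beyond sampling noise. The fit was checked on simulated data. The text names all 14 members, the relatives miR-7b and miR-9b, the brain list by counts, and for each tested member the 3 most similar miRNAs of other families; miR-135a and miR-135b were picked after their values were seen. Members and lists were chosen with earlier results of these data known. The alternatives were limma-voom (limma 3.58.1), DESeq2 1.42.0, its size factors in edgeR, scaling to library size, omission of the filter, a filter at a mean of 100 counts, fits to the compared libraries alone, a replicate block, summed precursors and omission of each library. A term for the division by miR-1-3p was added after the data were seen. Permutation tests used scipy 1.17.1 in Python 3.11.15, and figures matplotlib 3.10.9.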

Additional observations from a re-analysis of the deposited data

Results flagged for a closer look

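In 32 checks (8 members in the 4 libraries of each arm and of each time), a single library far from the other 3 was found 3 times, 2 of them for the same value. Chance gives about 1 in 20, and 8.64% of the 1436 such checks over all 359 miRNAs tested found one. miR-128-3p in MS_E replicate 1, at 158 cpm, was far below the other libraries, both among the 4 after stimulation and among the 4 taken at 1 h. miR-132-3p in MS_A replicate 1, at 21.8 cpm, was far above the other 3 libraries of 34 days, which were at 8.47 to 9.84 cpm.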

How the results depend on the processing

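Counts of members past the thresholds moved as follows. In MS_E against CIA_B the 0 became 1 (miR-7a-1-3p) with limma-voom, with DESeq2's size factors in edgeR and with counts summed over precursors, where 5.29%, 6.41% and 6.98% of all miRNAs tested passed. In MS_A the 1 became 0 with library size only, without a filter, with a mean of at least 100 counts, with the replicate block and with only the libraries compared, where 0.557%, 0.518%, 1.09%, 0.836% and 3.34% of all passed; miR-7a-1-3p, untested under the filter of 100 counts, stayed at 1.20, 1.30, 1.26 and 1.24 in the others. In PLA_A it became 0 with the mean of at least 100 counts (7.07% of all) and with only the libraries compared (7.52%), and over the 8 later libraries 0 with the mean of at least 100 counts (3.80%). With the division by miR-1-3p as a term, the count was 2 (both miR-7a arms) in MS_E, MS_A, PLA_A and over the 8, where 11.4%, 2.79%, 13.1% and 5.01% of all passed. In the interaction, 1 passed without a filter (miR-128-2-5p, with 2.59% of all). Otherwise the cause was not tested.

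With each library left out in turn, the count ranged from 0 to 1 in MS_E, MS_A and PLA_A against CIA_B, in MS_E against PLA_E, over the 8 libraries and in the interaction, and was 0 in the rest. In these 6 comparisons 4.46 to 8.91%, 0.557 to 1.95%, 2.51 to 7.52%, 1.95 to 9.75%, 0.836 to 5.57% and 0.836 to 4.74% of all miRNAs passed. Of the 18 named fold changes, 5 reversed under 1 alternative each. miR-132-3p for stimulation against placebo was -0.035 with library size only, a scaling that moved all miRNAs there by a median of -0.27, and with libraries left out miR-7a-5p ranged from -0.016 to 2.44 in MS_A and -0.085 to 2.40 in PLA_A, miR-128-3p in MS_E from -1.61 to 0.063, and miR-9a-5p in MS_A from -1.23 to 0.29. Without a change of sign, miR-7a-5p ranged from 0.36 to 2.34 in MS_E and 0.19 to 2.16 over the 8 libraries, miR-212-3p in PLA_A from -1.14 to -0.064, miR-132-3p from -0.91 to -0.26 at 34 days against 1 h, and the interaction of miR-128-1-5p from 0.47 to 1.84. Over all members and alternatives the smallest adjusted p was 0.212. Of the 80 pairs of member and comparison, 54 changed sign in at least 1 alternative.

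Library size only shifted the median change of all miRNAs by 0.35 in PLA_E, 0.29 in PLA_A, 0.20 over the 8 libraries and 0.16 in MS_E against CIA_B, and by -0.32 in MS_A against PLA_A, -0.27 for stimulation against placebo and -0.25 in MS_E against PLA_E. The permutation test of miR-7a-1-3p is at the smallest p that 8 against 2 can give, so its value says nothing of stability. It was not run with libraries left out, where 7 against 2 cannot go below 0.0556. Correlations between groups of the libraries with the same replicate number (4 of 10 above 0.1, from -0.54 to 0.59) followed the division by miR-1-3p. They therefore cannot show whether replicate numbers pair the libraries. By the methods of the study, tissue was taken when an animal was killed, so groups hold different animals. With the replicate block only the MS_A call was lost. At 7 reads in CIA_B replicate 1, depth limits the baseline of miR-7a-1-3p.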
